A study of Mus musculus with 8 samples.

Results

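The mouse egg holds abundant transcripts of multicopy gene families, and 2 such groups are described here, the oogenesins (Oog1, Oog2, Oog3 and Oog4) and the Tcl1 cluster (Tcl1, Tcl1b1, Tcl1b2, Tcl1b3, Tcl1b4 and Tcl1b5). The genes were taken by symbol, and all 10 were found among the 24860 genes listed in each library. RNA was measured in mature eggs arrested in meiosis II (MII oocytes) of C57BL/6 females on postnatal day 42. Of the 8 libraries, 4 came from females of genotype Esrp1-/- (Esrp1-KO) and 4 from wild-type (WT) females, each made with Smart-seq2 from a tube of 15 lysed oocytes. ESRP1 binds RNA, steers the choice of exons in splicing and is best known from epithelial cells. The sources used here do not say how the allele was made, whether a Cre driver was used or whether a tube held eggs of a single animal. The p-values therefore measure the spread between tubes.

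Oogenesins are leucine-rich repeat proteins related to the tumour antigen PRAME, made in mouse oocytes and early embryos, and mouse OOG1 has been reported to bind Ras and the Ral exchange factor RalGDS. TCL1 is a small protein that binds the kinase AKT and promotes its activation. It is best known as an oncogene of human T cells, and mouse embryos from mothers without Tcl1 cleave poorly. The Tcl1b genes are relatives of Tcl1 that have multiplied in tandem in the mouse.

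The members lie on chromosomes 4 and 12 of GRCm38, and in GENCODE M21 no exon of another gene overlaps theirs. Oog1 (ENSMUSG00000096576) is at chr12:87602688-87608850 on the plus strand. Oog2 (ENSMUSG00000066030, chr4:144190719-144196934, plus strand) and Oog3 (ENSMUSG00000050810, chr4:144157557-144162663, minus strand) lie close together. Oog4 (ENSMUSG00000047799) is at chr4:143437164-143450324 on the minus strand. The Tcl1 cluster lies apart from Oog1 on chromosome 12. Along the chromosome it runs from Tcl1b2 (ENSMUSG00000060863, chr12:105146014-105155225) through Tcl1b1 (ENSMUSG00000066359, chr12:105159690-105166625) and Tcl1b5 (ENSMUSG00000000701, chr12:105176344-105181145). Tcl1b3 (ENSMUSG00000068940, chr12:105191043-105195612) and Tcl1b4 (ENSMUSG00000079007, chr12:105201957-105206993) follow. The 5 Tcl1b genes are on the plus strand, and Tcl1 (ENSMUSG00000041359, chr12:105216750-105222793) closes the cluster on the minus strand.

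The coding sequences show how close the copies are. Aligned coding bases were 73.8% to 80.6% identical between oogenesins. Among the Tcl1b genes identity ran from 70.6% (Tcl1b1 and Tcl1b4) to 86.5% (Tcl1b3 and Tcl1b5), and Tcl1 was 44.4% to 47.7% identical to them. The first 90 coding bases of the Tcl1b genes (GENCODE M21 on GRCm38, plus strand, from the start codon) are shown because these close copies did not all change alike. Capitals mark bases unlike the commonest base of their column in an alignment of the 5 genes. Where bases tied as commonest, the first in the alphabet was taken, so a capital base can be as common as a small one.
Tcl1b2: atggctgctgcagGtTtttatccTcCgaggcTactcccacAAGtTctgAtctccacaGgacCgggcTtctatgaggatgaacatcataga
Tcl1b1: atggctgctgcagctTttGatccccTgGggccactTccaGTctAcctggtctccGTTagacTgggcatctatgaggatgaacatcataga
Tcl1b5: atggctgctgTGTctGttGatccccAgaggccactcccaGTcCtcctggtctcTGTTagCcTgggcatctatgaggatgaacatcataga
Tcl1b3: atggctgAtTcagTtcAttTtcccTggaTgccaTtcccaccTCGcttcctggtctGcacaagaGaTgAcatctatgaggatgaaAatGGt
Tcl1b4: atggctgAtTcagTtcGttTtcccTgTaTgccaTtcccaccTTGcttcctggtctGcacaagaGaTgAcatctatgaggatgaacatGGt
By this rule Tcl1b3 and Tcl1b4 each had 18 bases in this stretch unlike the commonest one, and 15 of these were the same base in both. These counts depend in part on how ties were settled. Tcl1b1 and Tcl1b5 had 7 such bases in common. The pair closest here, Tcl1b3 and Tcl1b4, was the pair whose levels differed most in their change.

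The bases before the transcription starts were compared because copies of a family may share them. The 120 bases before the RefSeq start (GRCm38.p6) are given on the strand of each gene. Capitals mark the E-box CANNTG, the core motif of basic helix-loop-helix factors, and the TATA motifs TATATA and TATAAA, searched on both strands. The windows of Oog1 (chr12:87602545-87602664) and Oog2 (chr4:144190597-144190716) are on the plus strand, and those of Oog3 (chr4:144162652-144162771) and Oog4 (chr4:143450325-143450444) on the minus strand.
Oog1: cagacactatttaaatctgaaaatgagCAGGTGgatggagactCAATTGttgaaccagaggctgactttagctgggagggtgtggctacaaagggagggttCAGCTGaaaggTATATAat
Oog2: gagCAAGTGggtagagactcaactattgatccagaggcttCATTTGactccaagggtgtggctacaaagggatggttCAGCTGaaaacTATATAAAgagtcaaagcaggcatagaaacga
Oog3: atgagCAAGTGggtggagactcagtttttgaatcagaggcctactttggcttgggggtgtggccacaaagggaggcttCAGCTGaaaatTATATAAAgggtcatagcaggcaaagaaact
Oog4: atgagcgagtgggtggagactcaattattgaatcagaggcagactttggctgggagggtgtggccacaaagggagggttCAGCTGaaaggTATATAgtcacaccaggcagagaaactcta
All 4 oogenesin windows hold CAGCTG, which is a case of CANNTG, followed shortly by TATATA. This E-box begins 19, 43, 42 and 41 bases before the start of Oog1, Oog2, Oog3 and Oog4. Of 32851 RefSeq windows of this length, 6.76% hold CAGCTG, 2.51% TATATA and 6.34% TATAAA, which is in the windows of Oog2 and Oog3 and overlaps TATATA there.

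The Tcl1 cluster holds other letters. Its windows are chr12:105146899-105147018, chr12:105159584-105159703, chr12:105176224-105176343, chr12:105190925-105191044 and chr12:105202275-105202394 on the plus strand and, for Tcl1, chr12:105222738-105222857 on the minus strand.
Tcl1b2: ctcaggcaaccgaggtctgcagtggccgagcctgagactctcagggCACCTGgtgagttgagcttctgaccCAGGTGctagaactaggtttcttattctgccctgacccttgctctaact
Tcl1b1: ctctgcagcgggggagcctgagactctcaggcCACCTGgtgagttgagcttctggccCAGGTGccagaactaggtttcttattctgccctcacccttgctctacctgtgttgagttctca
Tcl1b5: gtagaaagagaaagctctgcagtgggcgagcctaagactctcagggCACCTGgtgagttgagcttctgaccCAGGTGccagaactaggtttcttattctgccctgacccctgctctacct
Tcl1b3: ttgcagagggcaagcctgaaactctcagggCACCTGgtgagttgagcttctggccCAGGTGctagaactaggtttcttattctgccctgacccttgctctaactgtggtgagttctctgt
Tcl1b4: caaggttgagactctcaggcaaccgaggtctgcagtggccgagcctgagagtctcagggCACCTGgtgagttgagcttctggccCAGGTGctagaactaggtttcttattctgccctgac
Tcl1: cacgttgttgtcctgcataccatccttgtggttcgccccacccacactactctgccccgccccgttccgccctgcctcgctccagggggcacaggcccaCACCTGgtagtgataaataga
Each of the 5 Tcl1b windows holds the E-box CACCTG 2 times, once on each strand and at the same distance from each other in all 5. The windows of Tcl1 and Oog1 hold it once, and 8.43% of all windows hold it. None of the 6 windows of the cluster holds a TATA motif or CAGCTG. The general E-box CANNTG, of which both are cases, is in all 10 windows and in 40.19% of all windows. The homeodomain motif TAATTG was in the window of Oog4 alone (3.14% of all windows) and TAATTA in none (2.09%). The window of Tcl1b3, whose change did not pass the test, holds the same pair of E-boxes as those of the Tcl1b genes that fell. For Tcl1b2 and Tcl1b4 the window lies wholly inside the GENCODE M21 span of the gene, so M21 places the first base of both further upstream than RefSeq. Which start these eggs use was not tested.

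Sequence shared between paralogs limits what a value per gene can say. The share of each member's transcript sequence that also occurs in other genes was therefore computed, in stretches of 50 bases on either strand. It was 0% for Tcl1, 0.71% for Oog4 and 2.88% for Tcl1b4, whose values rest almost wholly on sequence of their own. It was 12.4% for Tcl1b1, 20.8% for Tcl1b5, 24.0% for Tcl1b2 and 34.1% for Tcl1b3, all of it shared within the cluster. Tcl1b3 shared 22.2% of its stretches with Tcl1b2 and 20.3% with Tcl1b5. Oog3 shared 19.7%, nearly all with the processed pseudogene Gm4350, and Oog2 shared 33.4%, mainly with Gm13084. Oog1 shared 88.96%, chiefly with the near copies Gm2042 (85.8% of its stretches) and Gm10436 (58.6%), so its value is uncertain. The authors' way of assigning reads that match several genes is not given in the sources used here.

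**Figure D1:**
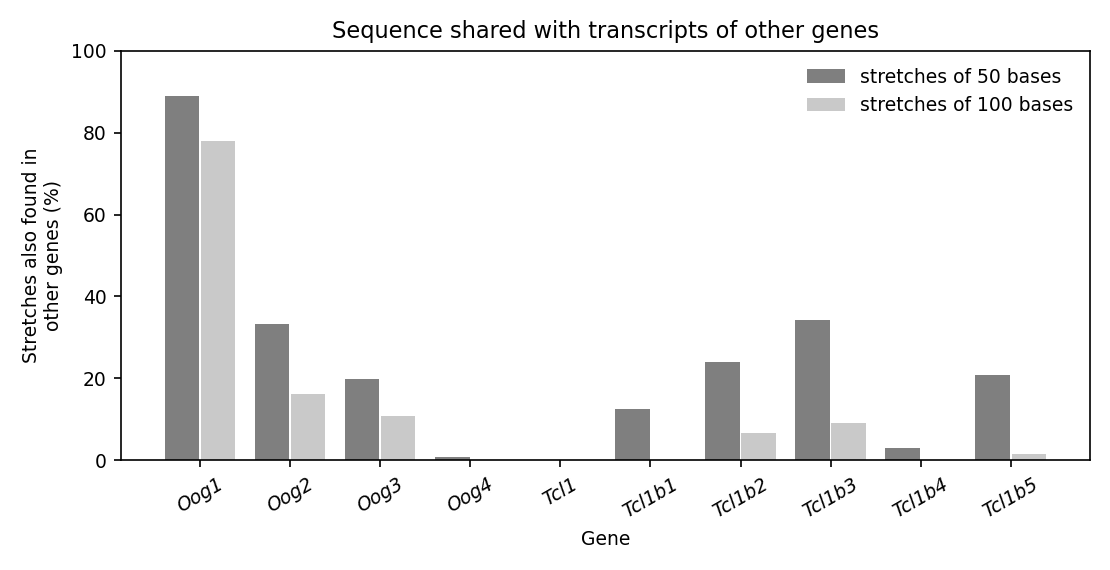
Share (%) of the stretches of each member's transcripts that also occur in transcripts of other genes, as bars for stretches of 50 bases and of 100 bases. Oog1 stands highest, at 88.96% and 78.03%, and Tcl1 is at 0% for both.

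Levels are in FPKM, reads scaled to the length of the gene and the size of the library, so genes of unlike length can be compared. They are relative levels, and in bulk samples fewer cells and less RNA per cell cannot be told apart. The implied totals were 24910418 to 32337957 reads in Esrp1-KO libraries and 25018199 to 28932113 in WT libraries. Esrp1 itself was at 2.31 to 3.83 FPKM in Esrp1-KO and at 16.2 to 19.5 FPKM in WT. A list of 10 oocyte markers, among them Gdf9 and Bmp15, summed to 9348 to 10727 FPKM in Esrp1-KO and 7826 to 8748 FPKM in WT. These markers did not move alike. By the test given below, 4 rose (Zp1, Zp2, Zp3 and Padi6), 1 fell (Mos) and 5 did not pass. Gdf9, Bmp15 and Oosp1 were among those that did not pass. Oosp1 had the highest mean of the list, at 4559 FPKM in Esrp1-KO and 3445 FPKM in WT. A list of 11 cumulus and granulosa cell markers summed to 4.47 to 5.73 FPKM in Esrp1-KO and 9.94 to 13.1 FPKM in WT. Of these 11 genes 8 were below 1 FPKM in every library, and Fshr, Ptx3 and Tnfaip6 were at 0 in every WT library. The higher WT sum lay mostly in Cyp19a1 (mean 1.87 FPKM in Esrp1-KO and 6.10 FPKM in WT) and Kitl (1.83 and 3.27 FPKM). Of the 8 low genes all but Hsd3b1 had a slightly higher mean in Esrp1-KO. The sum of 7 blood and stroma markers was 7.26 to 15.8 FPKM in Esrp1-KO and 5.16 to 6.90 FPKM in WT. The sum of the cumulus list thus moved in the direction of the members that fell, mostly through Cyp19a1 and Kitl. Its part in the results was not tested, nor was that of the blood and stroma markers. WT replicates 1 and 2 stood apart in opposite directions, with 4813 and 9659 genes at 0, against 6760 to 7757 in the other 6 libraries.

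Of the 10 members, 6 fell in Esrp1-KO eggs and 0 rose. Those that fell were Oog1 and Oog3 among the oogenesins and Tcl1b1, Tcl1b2, Tcl1b4 and Tcl1b5 in the Tcl1 cluster. Genes were tested with limma on log2(FPKM + 1), adjusted over the 8021 genes that averaged 1 FPKM or more, at an adjusted p of 0.05. All 10 members passed this filter. By the same test 36.9% of all genes changed, with 13.9% higher and 23.1% lower in Esrp1-KO. In the same 6 members no Esrp1-KO library reached a WT library, and in none were all Esrp1-KO libraries above WT. Of all genes tested, 36.8% had groups apart, 13.5% with Esrp1-KO higher and 23.3% with Esrp1-KO lower. The median log2 fold change was −0.74 over the members, −0.50 over the oogenesins and −0.94 over the Tcl1 cluster, against −0.06 over all genes tested. Without WT replicate 1 the count of members was again 6 lower and 0 higher, and so it was without WT replicate 2.

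TMM and median-ratio scaling shifted members and other genes upward together, whereas quantile normalization did not move all members alike. Of the genes past the threshold 62.5% were lower with FPKM as deposited, 47.3% with TMM scaling, 51.1% with quantile normalization and 48.6% with median-ratio scaling. Over all genes the median log2 fold change was 0.062 with TMM scaling, against −0.06 as deposited. Of the members, Tcl1b3 was at 0.33 with TMM scaling and 0.18 as deposited, and Tcl1 at −0.12 with TMM scaling and −0.27 as deposited. Quantile normalization also moved the median over all genes up, to 0.026, but moved Oog1 down, to −0.75 from −0.70 as deposited. Under each of these 3 scalings 6 members were lower and 0 higher.

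**Figure D2:**
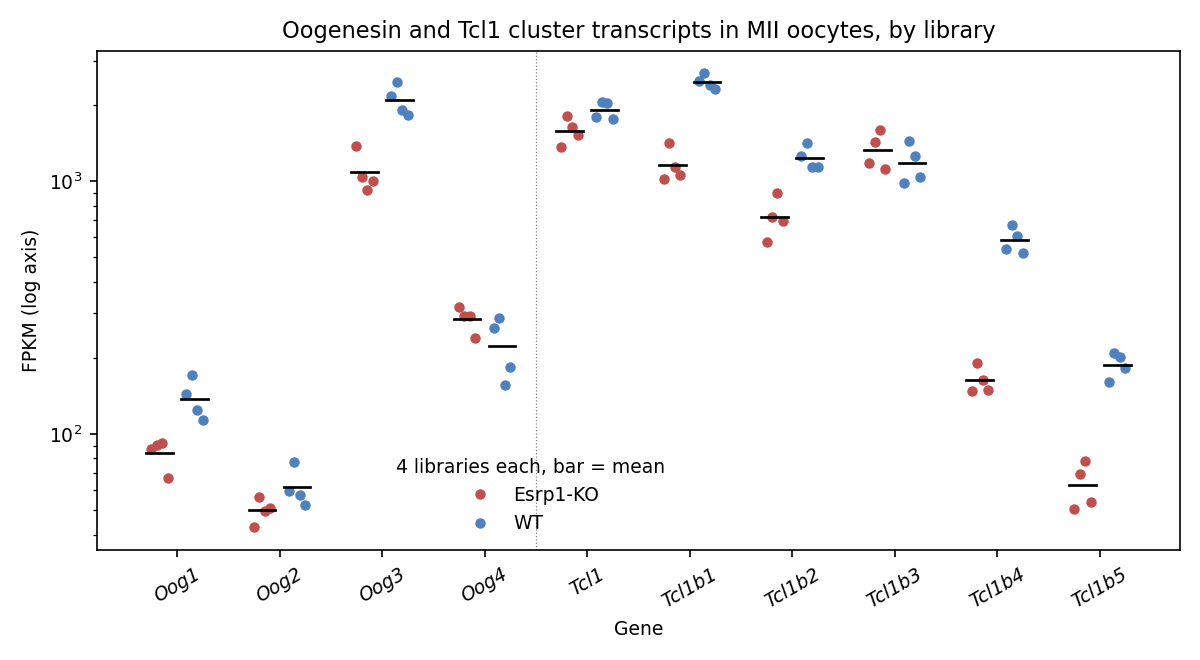
FPKM (log axis) of each member in the 4 Esrp1-KO libraries (left of each pair) and the 4 WT libraries (right), with bars at the group means. The groups are apart for Oog1, Oog3, Tcl1b1, Tcl1b2, Tcl1b4 and Tcl1b5 and overlap for Oog2, Oog4, Tcl1 and Tcl1b3.

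**Figure D3:**
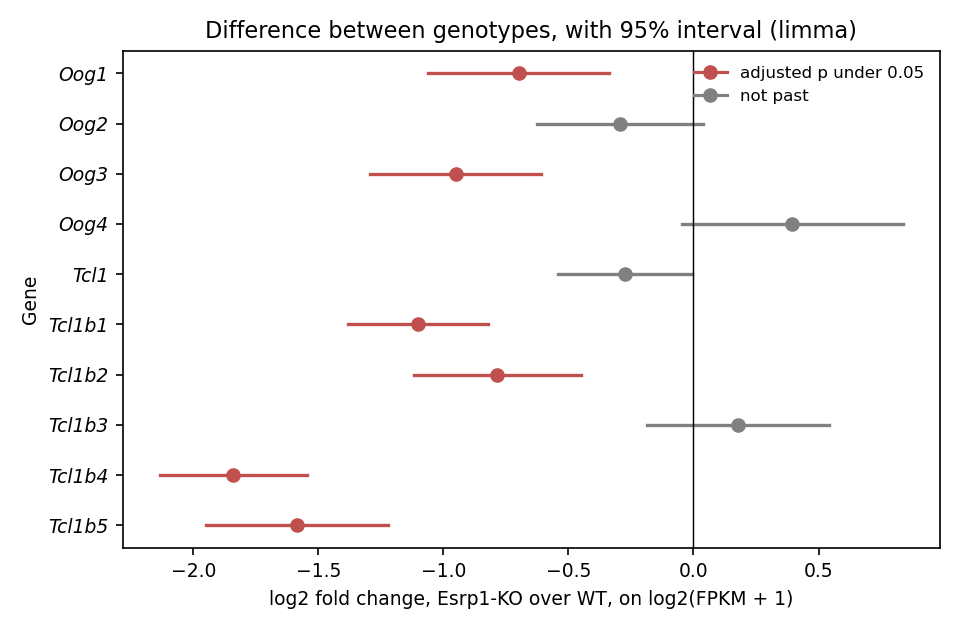
Log2 fold change (Esrp1-KO over WT) of each member with its 95% interval from limma, red where the adjusted p was under 0.05. The values run from −1.84 for Tcl1b4 to 0.39 for Oog4.

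In Esrp1-KO eggs Tcl1 was the most abundant member, at 1589 ± 188 FPKM (SD, n = 4) and rank 29 of all genes by mean level. Tcl1b3 (1335 ± 223 FPKM), Tcl1b1 (1160.4 ± 181 FPKM) and Oog3 (1088 ± 202 FPKM) came next, and the libraries of each of these 4 overlapped with those of the next. Below them were Tcl1b2 (725 ± 135 FPKM), Oog4 (286 ± 32.6 FPKM) and Tcl1b4 (163 ± 19.9 FPKM), with no overlap between neighbours. Oog1 (84.2 ± 11.8 FPKM), Tcl1b5 (62.8 ± 13.0 FPKM) and Oog2 (49.8 ± 5.60 FPKM) were the lowest, each overlapping with the next.

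In WT eggs the order was another. Tcl1b1 led with 2473 ± 149 FPKM (SD, n = 4), rank 21 of all genes, followed by Oog3 (2094 ± 286 FPKM) and Tcl1 (1915 ± 158 FPKM), each overlapping with the next. Tcl1b2 (1239 ± 135 FPKM) and Tcl1b3 (1181 ± 212 FPKM) overlapped, and Tcl1b4 (585 ± 68.8 FPKM) stood apart from its neighbours. Oog4 (223 ± 62.1 FPKM), Tcl1b5 (188 ± 21.5 FPKM) and Oog1 (138 ± 25.2 FPKM) overlapped in turn, and Oog2 was lowest with 61.7 ± 11.05 FPKM. WT replicate 2 had the highest WT value of all 10 members, and WT replicate 4 the lowest of 7.

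Oog3, the most abundant oogenesin, had 1382, 1041, 924 and 1004 FPKM in Esrp1-KO libraries 1 to 4, against 2169, 2465, 1907 and 1834 FPKM in WT libraries 1 to 4. Every Esrp1-KO library was below every WT library, with Esrp1-KO replicate 1 the nearest. The level in Esrp1-KO was 0.52 of that in WT, with a log2 fold change of −0.95 ± 0.15 (SE, adjusted p = 0.0011, limma). Between 48385 and 83338 reads stood behind each Esrp1-KO value, against 98956 to 115016 behind each WT value.

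Oog1, the member reported to bind Ras in the mouse, had 87.5, 90.3, 92.3 and 66.8 FPKM in Esrp1-KO, against 144, 170.5, 124 and 113 FPKM in WT. The groups were apart, and the level in Esrp1-KO was 0.611 of that in WT (log2 fold change −0.70 ± 0.16 SE, adjusted p = 0.00787, limma). With replicates 1 and 4 alone the call was lost (−0.73, adjusted p = 0.0536, limma), and likewise with replicates 2 and 3 alone (−0.67, adjusted p = 0.0647, limma), each a fit with fewer libraries. Over 20 alternatives its adjusted p ran from 0.00293 to 0.0647.

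Most of the Oog1 sequence is also that of its copies, and none of these passed. Gm2042 averaged 119 ± 21.2 FPKM in Esrp1-KO and 163 ± 31.7 FPKM in WT (SD, n = 4 each; adjusted p = 0.0713, limma). Gm10436, more abundant than Gm2042, averaged 483 ± 59.1 FPKM in Esrp1-KO and 662 ± 144 FPKM in WT (adjusted p = 0.0619, limma). Oog1 and its 4 partner copies (Gm2042, Gm10436, C87977 and Gm13023) summed to 1948, 2029, 1952 and 1535 FPKM in Esrp1-KO, against 2354, 2891, 2007 and 1995 FPKM in WT. These sums overlapped, through Esrp1-KO replicate 2, whereas the values of Oog1 alone did not. The largest part of each sum was Gm13023, which shares 14.45% of the Oog1 stretches. It averaged 1045 ± 148 FPKM in Esrp1-KO and 1196 ± 195 FPKM in WT. Whether reads were moved between copies was not tested.

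Oog2, the least abundant member, had 42.7, 56.2, 49.4 and 51.04 FPKM in Esrp1-KO, against 59.6, 77.7, 57.2 and 52.4 FPKM in WT. The groups overlapped between the highest Esrp1-KO and the lowest WT libraries. Its log2 fold change of −0.295 had a 95% interval of −0.63 to 0.037 and did not pass (adjusted p = 0.148, limma). Without WT replicate 2, its highest library, the log2 fold change was −0.18 (adjusted p = 0.337, limma). Gm13084, which shares 30.05% of the Oog2 stretches, averaged 163 ± 15.2 FPKM in Esrp1-KO and 214 ± 35.9 FPKM in WT and did not pass either (adjusted p = 0.0576, limma). Unlike those of Oog2, its groups were apart, with Esrp1-KO lower, as in 23.3% of all genes tested. Oog2 and Gm13084 summed to 184, 221, 225 and 222 FPKM in Esrp1-KO, against 258, 345, 255 and 244 FPKM in WT. These sums did not overlap.

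Oog4 was the oogenesin with the highest fold change. It had 318, 292, 294 and 240.3 FPKM in Esrp1-KO, against 263, 287, 157 and 184 FPKM in WT. The 3 higher Esrp1-KO libraries were above all WT libraries, and Esrp1-KO replicate 4 was within them. The log2 fold change was 0.39 ± 0.20 (SE), with a 95% interval of −0.048 to 0.84, and did not pass (adjusted p = 0.146, limma). Next to no Oog4 sequence is shared, unlike that of Oog1 (0.71% and 88.96% of stretches).

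The balance among oogenesins was therefore another in each genotype. Oog3 made up 71.9 ± 3.37% of their summed FPKM in Esrp1-KO and 83.3 ± 1.35% in WT (SD, n = 4 each). Oog4 made up 19.1 ± 1.98% in Esrp1-KO and 8.74 ± 1.34% in WT. The ratio of Oog3 to Oog4 within a library, which does not depend on scaling, was 3.15 to 4.35 in Esrp1-KO and 8.24 to 12.2 in WT, so no library of one genotype reached the other. The ratios here and below were chosen after the values were seen and are descriptions. Oog1 was close in both, with 5.65 ± 0.97% in Esrp1-KO and 5.46 ± 0.21% in WT. The 4 genes together held 0.464 ± 0.0771% of all FPKM in Esrp1-KO and 0.775 ± 0.108% in WT.

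Tcl1, which names the cluster, had 1369, 1819, 1635 and 1531 FPKM in Esrp1-KO, against 1793, 2064, 2037 and 1764 FPKM in WT. Esrp1-KO replicate 2 was above WT replicates 1 and 4, so the groups overlapped. The log2 fold change was −0.27 ± 0.12 (SE), with a 95% interval of −0.54 to −0.0062 before adjustment, and did not pass (adjusted p = 0.1, limma). It passed without Esrp1-KO replicate 2 (−0.34, adjusted p = 0.0441, limma), and over 20 alternatives its adjusted p ran from 0.0441 to 0.478.

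Tcl1b1, the most abundant member in WT, had 1025, 1422, 1139 and 1055 FPKM in Esrp1-KO, against 2486, 2672, 2411 and 2320.3 FPKM in WT. The groups were far apart, with all WT libraries close together. Its level in Esrp1-KO was 0.469 of that in WT, with a log2 fold change of −1.10 ± 0.13 (SE, adjusted p = 0.000174, limma), and its rank among all genes was 39 in Esrp1-KO and 21 in WT.

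Tcl1b2 had 577, 724, 903 and 696 FPKM in Esrp1-KO, against 1256, 1423, 1142 and 1134 FPKM in WT. Esrp1-KO replicate 3 was the highest of its group and still below the WT libraries. Its level in Esrp1-KO was 0.585 of that in WT (log2 fold change −0.78 ± 0.15 SE, adjusted p = 0.00288, limma). With replicates 2 and 3 alone the call was lost (−0.66, adjusted p = 0.0602, limma), and over 20 alternatives the adjusted p ran from 0.00133 to 0.0602.

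Tcl1b5, the least abundant gene of the cluster, had 50.3, 69.3, 77.9 and 53.6 FPKM in Esrp1-KO, against 160.2, 209, 201 and 183 FPKM in WT. The groups were apart by a wide margin. The level in Esrp1-KO was 0.334 of that in WT, with a log2 fold change of −1.58 ± 0.16 (SE, adjusted p = 0.000101, limma).

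Tcl1b4 had the lowest fold change of the members. It had 148, 191, 163 and 149 FPKM in Esrp1-KO, against 541, 673, 607 and 521 FPKM in WT. All Esrp1-KO libraries were far below all WT libraries. The level in Esrp1-KO was 0.278 of that in WT, with a log2 fold change of −1.84 ± 0.13 (SE, adjusted p = 1.45e-05, limma). With 2.88% of its stretches shared, this value rests almost wholly on Tcl1b4 sequence.

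Tcl1b3 was the Tcl1b gene whose change did not pass the test. It had 1183, 1437, 1599 and 1121 FPKM in Esrp1-KO, against 981, 1443, 1260 and 1041 FPKM in WT. The groups overlapped over most of their range. The log2 fold change was 0.18 ± 0.16 (SE), with a 95% interval of −0.19 to 0.54, and did not pass (adjusted p = 0.422, limma). The intervals of the other Tcl1b genes all lay below this one, the nearest being that of Tcl1b2, which ended at −0.45. Tcl1b3 has the largest shared part of the cluster, and how far reads of its copies enter its value was not tested.

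**Figure D4:**
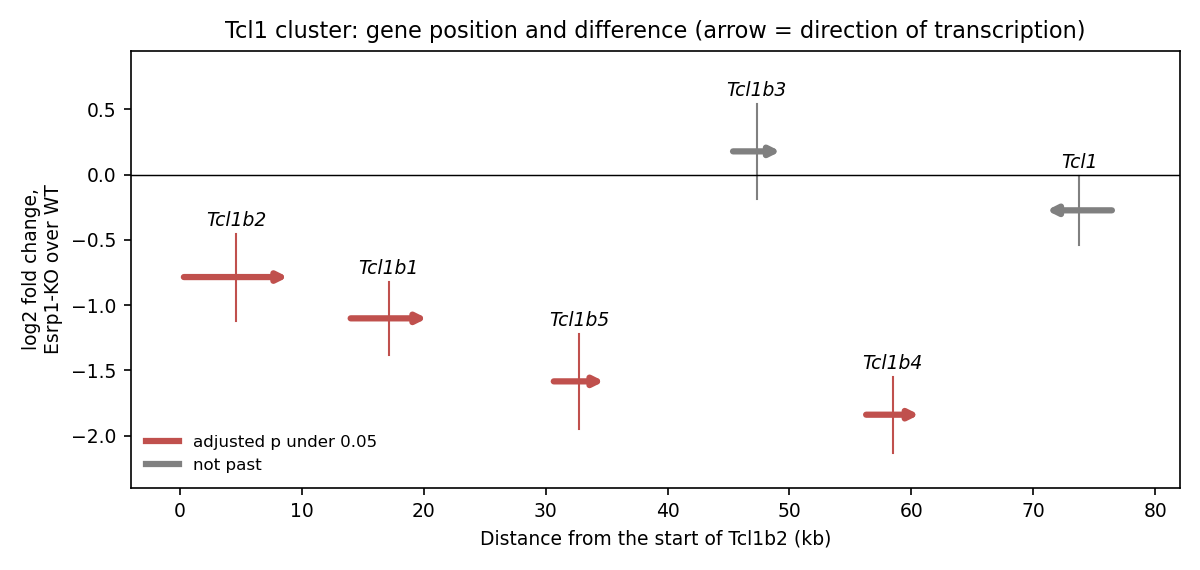
Log2 fold change (Esrp1-KO over WT) of the 6 genes of the Tcl1 cluster, with 95% intervals from limma, against the distance (kb) from the start of Tcl1b2, red where the adjusted p was under 0.05; arrows span each gene in its direction of transcription. Tcl1b3 at 0.18 lies between Tcl1b5 at −1.58 and Tcl1b4 at −1.84.

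Along the chromosome the log2 fold changes of the genes that fell went down in order, with −0.78 for Tcl1b2, −1.10 for Tcl1b1, −1.58 for Tcl1b5 and −1.84 for Tcl1b4, although the intervals of neighbours in this order overlapped. Tcl1b3, between Tcl1b5 and Tcl1b4, and Tcl1 lay outside this order, as did the pseudogene Gm47672 upstream of Tcl1b2, at −1.96. The order was picked after the values were seen and is a description. The ratio of Tcl1b3 to Tcl1b4 was 7.98, 7.53, 9.79 and 7.52 in Esrp1-KO libraries, against 1.81, 2.15, 2.08 and 1.999 in WT libraries. The ratio of Tcl1b3 to Tcl1b1 was 1.01 to 1.40 in Esrp1-KO and 0.394 to 0.540 in WT. In both ratios all Esrp1-KO libraries were above all WT libraries. The ratio of Tcl1b4 to Tcl1b5, in contrast, overlapped, with 2.10 to 2.95 in Esrp1-KO and 2.85 to 3.38 in WT.

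In the summed FPKM of the 5 Tcl1b genes the leading copy changed places. Tcl1b3 held 38.7 ± 2.15% in Esrp1-KO and 20.7 ± 2.12% in WT, while Tcl1b1 held 33.8 ± 3.20% in Esrp1-KO and 43.7 ± 1.86% in WT (SD, n = 4 each). Tcl1b3 was above Tcl1b1 in all 4 Esrp1-KO libraries and below it in all 4 WT libraries. Tcl1b4 held 4.75 ± 0.366% in Esrp1-KO and 10.3 ± 0.393% in WT, and Tcl1b5 held 1.81 ± 0.139% in Esrp1-KO and 3.32 ± 0.285% in WT. The share of Tcl1b2 overlapped, with 21.01 ± 2.25% in Esrp1-KO and 21.9 ± 1.18% in WT. The whole cluster, Tcl1 included, summed to 4353, 5662, 5517 and 4606 FPKM in Esrp1-KO, against 7218, 8485, 7657 and 6964 FPKM in WT. Every Esrp1-KO sum was below every WT sum, and the mean was 0.664 of that in WT. The cluster held 1.54 ± 0.153% of all FPKM in Esrp1-KO and 2.34 ± 0.154% in WT.

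**Figure D5:**
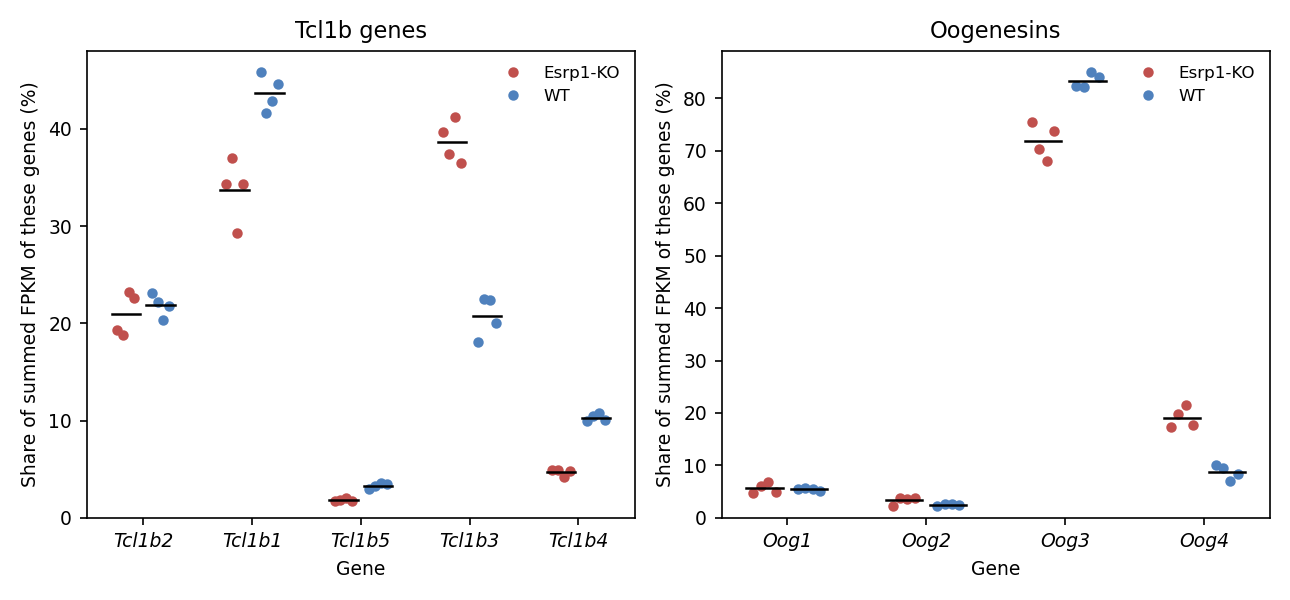
Share (%) of each gene in the summed FPKM of the Tcl1b genes and of the oogenesins, with a point per library, Esrp1-KO left of WT, and bars at the means. Tcl1b3 is at 36.5% to 41.2% in Esrp1-KO and 18.1% to 22.5% in WT, and Oog4 at 17.4% to 21.6% in Esrp1-KO and 6.98% to 9.99% in WT.

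Of 20 tested genes within 250 kb of the members, 1 rose and 8 fell, while over all genes tested 13.9% were higher and 23.1% lower. Within 250 kb of Oog1, 3 other genes were tested and all 3 fell, among them the splicing cofactor Snw1, with 38.0 ± 5.42 FPKM in Esrp1-KO and 59.4 ± 3.40 FPKM in WT (adjusted p = 0.00379, limma). Around Oog2 and Oog3, 1 of 5 rose (Pramef12) and 1 fell (Pramef17). Around Oog4, 0 of 9 rose and 2 fell, Gm13089 (17.8 ± 3.16 FPKM in Esrp1-KO and 36.7 ± 3.82 FPKM in WT, adjusted p = 0.000667, limma) and Gm13041. Around the Tcl1 cluster 2 of 3 fell. One of these was the processed pseudogene Gm47672 (chr12:105135196-105135441), upstream of Tcl1b2, with 21.3 ± 4.203 FPKM in Esrp1-KO and 84.8 ± 11.3 FPKM in WT (adjusted p = 3.28e-05, limma).

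Of 12 genes named Prame, Pramel or Pramef, the wider family of the oogenesins, 5 were tested, of which 1 rose and 1 fell (40.0% called, against 36.9% of all genes tested). The median log2 fold change was −0.27, and its sign rests on Pramel7, which passed the filter through WT replicate 1 alone (21.1 FPKM there, at most 0.082 FPKM in the other 7 libraries). Without Pramel7, a choice made after the data were seen, the median was 0.12. Pramef12 rose, with 25.4 ± 4.25 FPKM in Esrp1-KO and 16.6 ± 3.27 FPKM in WT (adjusted p = 0.0249, limma). Pramef17 fell, with 1.34 ± 0.438 FPKM in Esrp1-KO and 4.41 ± 1.38 FPKM in WT (adjusted p = 0.00232, limma). Neither approaches the level of Oog3.

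Of 20 tested genes of AKT signalling, the pathway of TCL1, 5 rose and 4 fell, so 9 of 20 were called, near the 36.9% of all genes tested. The median over the 20 was −0.03 on the log2 scale. Akt2, a kinase of the AKT family, rose, with 2.69 ± 0.649 FPKM in Esrp1-KO and 1.18 ± 0.264 FPKM in WT (adjusted p = 0.00467, limma). Inpp5d, which encodes the inositol phosphatase SHIP1, rose, with 4.74 ± 0.561 FPKM in Esrp1-KO and 2.05 ± 0.335 FPKM in WT (adjusted p = 0.000652, limma). Foxo3, a transcription factor that AKT inhibits, rose, with 8.62 ± 1.38 FPKM in Esrp1-KO and 4.92 ± 0.394 FPKM in WT (adjusted p = 0.00378, limma). Phlpp2, an AKT phosphatase, fell, with 0.915 ± 0.163 FPKM in Esrp1-KO and 2.04 ± 0.145 FPKM in WT (adjusted p = 0.00202, limma).

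The list of Ras and Ral signalling, to which OOG1 has been linked, had 10 tested genes. One of them, Rlf, is there by a name once used for the Ral exchange factor Rgl2, while mouse Rlf encodes a zinc-finger protein. Without Rlf 9 genes were tested, of which 1 rose and 2 fell, with a median of −0.066 on the log2 scale. With Rlf, which rose, 40.0% were called, near the 36.9% of all genes tested. Nras, a Ras GTPase, fell, with 3.68 ± 1.37 FPKM in Esrp1-KO and 44.2 ± 12.6 FPKM in WT (log2 fold change −3.28, adjusted p = 1.94e-05, limma). Sos2, a Ras exchange factor, fell, with 0.571 ± 0.168 FPKM in Esrp1-KO and 1.96 ± 0.267 FPKM in WT (adjusted p = 0.000662, limma). Exoc2, a Ral effector of the exocyst, rose, with 22.3 ± 7.03 FPKM in Esrp1-KO and 10.5 ± 3.04 FPKM in WT (adjusted p = 0.0134, limma), although the groups overlapped.

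Of 7 tested oocyte transcription factors 4 rose and 0 fell, while over all genes tested 13.9% were higher and 23.1% lower. The median over the 7 was 0.54 on the log2 scale. Nobox rose, with 53.5 ± 4.67 FPKM in Esrp1-KO and 25.9 ± 1.97 FPKM in WT (adjusted p = 0.000176, limma). Lhx8 rose, with 43.4 ± 11.4 FPKM in Esrp1-KO and 16.4 ± 2.38 FPKM in WT (adjusted p = 0.00083, limma). Foxo3 and Taf4b were the others that rose.

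The genes whose levels ran most like those of Oog3 over the 8 libraries were Trim61, Cysltr2 and Mpzl1, with Pearson correlations of 0.991, 0.990 and 0.988 on log2(FPKM + 1). Trim61, itself abundant, had 2451 ± 228 FPKM in Esrp1-KO and 3731 ± 207 FPKM in WT. For Tcl1b1 they were Agps (0.994), Sec11a (0.993) and Zfp931 (0.991), all of lower level. The libraries fall into 2 genotypes, and all 6 genes were lower in Esrp1-KO, so these values are descriptions and no test was made of them.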

How the data were processed

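RNA was measured by Smart-seq2, an unstranded method primed on poly(A). Each deposited file lists FPKM by gene, per the file headers, on GRCm38, per the submitters' processing notes. The aligner, counter and annotation release were not given in the sources used here. Of 24860 Ensembl genes 24812 had a symbol in GENCODE M21. With M21 exon lengths about 90% of values came out as whole reads (tolerance 0.02 of a read), for 22629 genes in all 8 libraries, all members included. An FPKM of 1 at 1 kb stood for 24.9 to 32.3 reads, and PCR copies are not marked.

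The 8021 genes that averaged 1 FPKM or more were tested on log2(FPKM + 1) using limma (version 3.58.1, R version 4.3.3) and its intensity trend. On this scale the change of low genes comes out smaller. Genotype was the only term, tests were two-sided with Benjamini-Hochberg adjustment, and the threshold was 0.05. The steps were tested on simulated data. Alternatives changed the pseudocount, filter, scaling, moderation, unit and libraries. Coding sequences were aligned with MAFFT 7.526, and tables were made in Python 3.11.15. Promoter windows are RefSeq's and matched all 10 members by symbol.

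Deviations from the group means correlated at 0.226 to 0.317 in the 4 same-numbered pairs of libraries. Unlike numbers correlated at −0.407 to 0.402, and Esrp1-KO replicate 1 with WT replicate 4 exceeded every same-numbered pair. The labels state no pairing, so it is uncertain, and the block is an alternative only. The members and gene lists were chosen with earlier results of these data known. Beside the members, the text names Esrp1, partner copies, up to 4 genes of each list and up to 4 neighbours per locus by smallest p, and the 3 genes most correlated with Oog3 and Tcl1b1. Cell type markers and further list genes are named where they limit a statement.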

Additional observations from a re-analysis of the deposited data

Results flagged for a closer look

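In groups of 4 libraries a library was marked where its gap to the nearest other passed Dixon's critical value at 95%, which chance gives in about 1 in 20 groups. Of 146 groups checked 9 were marked, and none was the FPKM of a member. Among shares and ratios, Esrp1-KO replicate 3 had a Tcl1b4 share of 4.21% of the Tcl1b genes (4.85% to 4.97% in the other Esrp1-KO libraries). Esrp1-KO replicate 1 had an Oog2 share of 2.33% of the oogenesins (3.63% to 3.8% in the others). The same library had a ratio of Tcl1b3 to Tcl1b5 of 23.5 (20.5 to 20.9 in the others). Trim61, the gene most like Oog3, was at 2790.2 FPKM in Esrp1-KO replicate 1 (2312 to 2368 FPKM in the others), and Agps, the gene most like Tcl1b1, at 10.8 FPKM in Esrp1-KO replicate 2 (7.68 to 8.13 FPKM). Among WT libraries, Gm13084, the near copy of Oog2, was at 267 FPKM in replicate 2 (191 to 199 FPKM in the others). Exoc2 was at 15.003 FPKM in WT replicate 2 (8.51 to 9.33 FPKM), Fbxw28 at 993 FPKM in WT replicate 4 (1257 to 1279 FPKM) and Gm13041 at 4.15 FPKM in WT replicate 3 (3.46 to 3.56 FPKM).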

How the results depend on the processing

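Over 20 alternatives for each of the 10 members, 196 of 200 values kept their direction and their side of the threshold, 1 was newly past it (Tcl1) and 3 were no longer past it (Oog1 in 2 and Tcl1b2 in 1), and none changed sign. The counts of genes past the threshold, 1111 higher and 1850 lower in Esrp1-KO, became 668 and 996 with a mean of at least 5 FPKM, where 4290 genes were tested. They became 675 higher and 1339 lower with replicates 1 and 4 alone, and 569 higher and 879 lower with replicates 2 and 3 alone, where each group had 2 libraries. With the replicate number as a block, 1376 genes were higher and 2030 lower, and the members remained 0 higher and 6 lower by count. The block changed the call of no member. Leaving out each library in turn gave 883 to 1093 genes higher and 1477 to 1838 lower, and 6 or 7 members lower. The median of the Prame-like list, −0.27, was 0.12 without Pramel7. The log2 ratio of summed FPKM ran from −0.65 to −0.44 for the Tcl1 cluster and from −0.85 to −0.59 for the oogenesins over 11 alternatives. Depth was not the limit for the members, the lowest of which, Tcl1b5, had at least 1600 reads in each library. Shared sequence limits Oog1 most.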

Other observations

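Of 38 tested genes of other multicopy families of the egg (Obox, Nlrp, Oas1, Omt2, Fbxw and Xlr) 9 rose and 7 fell. This is 42.1% called, near the 36.9% of all genes tested. The median over the 38 was 0.13 on the log2 scale. Obox6, among the 38, passed the filter through WT replicate 1 alone (40.3 FPKM there, at most 0.421 FPKM in any other library). Its change did not pass the test, and the median without it was not computed. Fbxw28, an F-box gene of the oocyte cluster, rose, with 2517 ± 553 FPKM in Esrp1-KO and 1201 ± 139 FPKM in WT (SD, n = 4 each; adjusted p = 0.00105, limma). Nlrp4c rose, with 19.5 ± 2.85 FPKM in Esrp1-KO and 10.5 ± 0.316 FPKM in WT (adjusted p = 0.00102, limma). Its more abundant relatives went the other way, as Nlrp4a, Nlrp4b, Nlrp4f and Nlrp4g fell and Nlrp4e did not pass. Nlrp4a had 159 ± 13.8 FPKM in Esrp1-KO and 281 ± 38.4 FPKM in WT (adjusted p = 0.00127, limma). Xlr5c fell, with 0.446 ± 0.413 FPKM in Esrp1-KO and 6.44 ± 0.489 FPKM in WT (adjusted p = 2.04e-05, limma). Xlr5b fell, with 0.074 ± 0.050 FPKM in Esrp1-KO and 2.35 ± 0.580 FPKM in WT (adjusted p = 4.58e-05, limma). How much sequence the copies share was not computed for these families.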
